A study of Bos taurus with 2 samples.

Results

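In the sperm methylomes of the monozygotic twin bulls, 775 broad valleys of low methylation were found on the autosomes. A valley was a run of neighbouring 1 kb windows in which fewer than 20% of reads were methylated in Bull1 and in Bull2. Windows were used when at least 3 of their CpG sites were covered by 5 or more reads in both libraries, and a window without such coverage was bridged when it stood alone. A valley held at least 5 low windows, and its mean coverage stayed under 100 reads per CpG in both libraries. Of 28481 runs of low windows, 27649 had 1 to 4 low windows, 57 were long enough but at or over the depth limit, and 775 were valleys. These held 5675 of the 51410 low windows, which were 2.29% of the 2245113 windows used.

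The study compared twin Holstein bulls that were matched in genotype and differed in semen quality. Sperm DNA from frozen semen of each bull, collected at the same age, was read by whole-genome bisulfite sequencing (WGBS), in which bisulfite converts unmethylated cytosines and leaves methylated ones. Each bull gave 1 library, which leaves replicate error unknown, and every difference is one between libraries. Neither the labels nor the study names a treatment or a modified allele. Sperm purity was not checked here by marker genes.

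Sperm DNA is densely methylated apart from short unmethylated stretches, which often coincide with CpG islands at gene promoters. Broad unmethylated domains, known as methylation valleys, often cover genes of transcription factors that direct development, and much of this pattern is shared between germ cells and somatic tissues. Satellite DNA, the tandem repeats near centromeres, is a further part of the genome known to be less methylated in bull sperm than in somatic cells. Positions follow UMD3.1, for which no gene annotation was used, so valleys are given by position and without gene names.

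Of 8 assayed regions of the study with printed positions, 2 lay inside a valley by position. The position of 1 of them held no listed CpG site, for a reason that was not tested, and that region was left out. The other was a bisulfite sequencing amplicon. Its primer pair is shown because it gives the converted sequence at both ends of an assayed stretch of a valley, chr4:69398315-69398594 (UMD3.1), within the valley chr4:69397001-69402000. Both are 25 bases long, are written 5′ to 3′ and were designed for bisulfite-converted DNA, so cytosines that were converted are written as t, or as a on the reverse primer.
Forward: ggttagaggaggttgtttttgtgag
Reverse: aacctctaaactcctctctctccac
The amplicon held 24 listed CpG sites. In Bull1, 0 of 202 reads summed over these sites were methylated, with an exact Clopper-Pearson 95% interval that reached 1.81%. In Bull2, 2 of 236 were methylated, which is 0.847% (0.103 to 3.03%). The intervals of the libraries overlapped. A single fragment can cover many of these sites, so the summed reads are not independent and both intervals are too narrow. Of the 5 windows of the valley, the first 3 were between 0.595% and 1.42% in Bull1 and between 0.508% and 0.904% in Bull2. The fourth was at 3.07% and 0.398%, and the last was at 17.5% and 9.70%. The last window was thus the highest of this valley in both libraries, and in Bull1 it was close to the 20% limit.

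The rule read the methylation levels of both libraries, so the low level is not a finding, and levels and differences of the members are given as a description. Tests between the libraries are counted further on beside their share over the genome, and they support nothing about the members. Coverage of all used windows was 20.6 reads per CpG in Bull1 and 18.9 in Bull2, and their levels were 74.9% and 70.7%. All valleys together, a span of 5.80 Mb with 263193 CpG sites in the low windows, were at 11.5% (11.52 to 11.57%) in Bull1 and 12.4% (12.32 to 12.38%) in Bull2. Reads of neighbouring CpG sites often come from the same fragment. These intervals and all others given here therefore cover counting error only and are too narrow.

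The pooled level did not describe a typical valley. The median valley was at 4.58% in Bull1 and 3.22% in Bull2. Taking the average of both libraries for each valley, 457 valleys lay under 5%, 29 between 5% and 6%, and 31 between 6% and 9%. The steps of 1 point from 9% to 12% held 17, 12 and 16, and 202 valleys lay between 12% and 17%. The valleys therefore lay mostly around a low and a higher level, with fewer between them. Because each low window had to be under 20%, the higher level is cut off from above by the rule. Between 17% and 18% lay 10 valleys, and between 19% and 20% lay 0. With a limit of 30%, 1427 valleys were at 16.2% over both libraries, where the rule's valleys were at 11.95%.

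**Figure D1:**
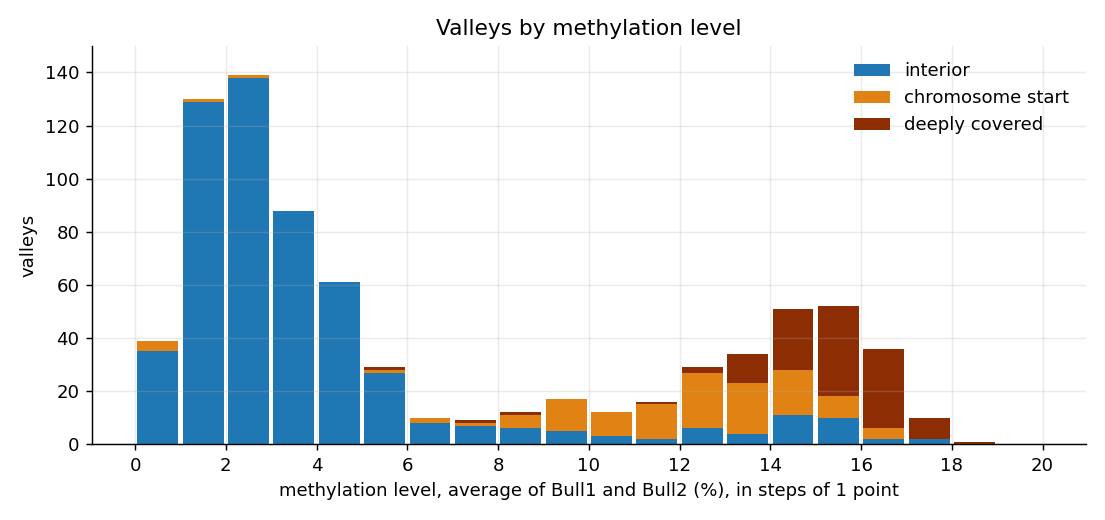
Number of valleys (vertical axis) by methylation level, the average of Bull1 and Bull2 in percent (horizontal axis, steps of 1 point), stacked by class. Interior valleys make up most of the peak under 5%, and chromosome start and deeply covered valleys most of the peak between 12% and 17%.

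Depth and place separated these levels only in part, and 3 classes were set from depth and place after the values were seen. Deeply covered valleys, 113 in number, had 40 or more reads per CpG on average over both libraries. They were set by depth alone, and some lay in the first 2 Mb, such as chr10:1-30000. Of the rest, 118 began within the first 2 Mb of a chromosome's coordinates and were called chromosome start valleys, and the remaining 544 were called interior valleys. Cattle autosomes are acrocentric, so the centromere lies near one end. Which end of a chromosome its coordinates begin at was not checked here. Levels, numbers and spacing within the classes are descriptions, since the classes were chosen on these data.

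**Figure D2:**
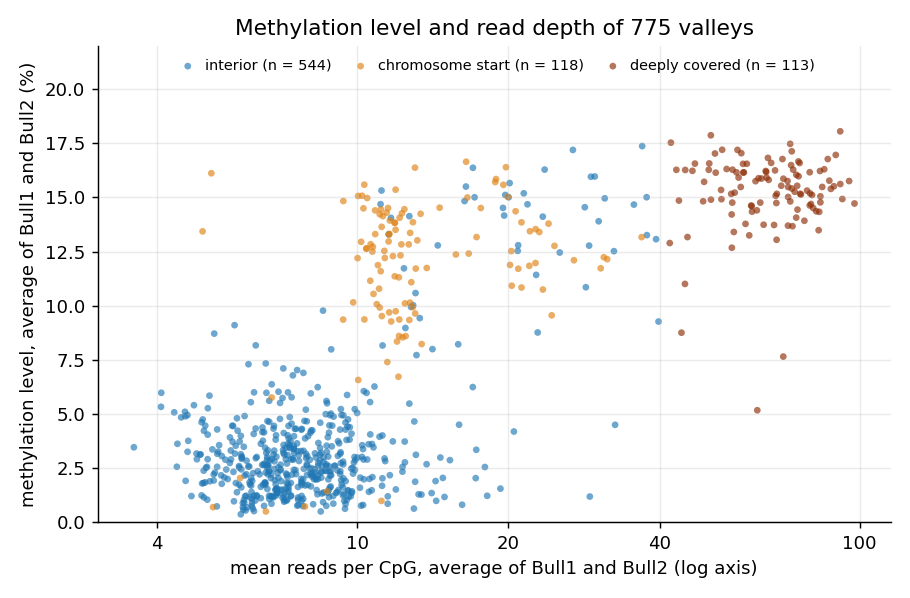
Each point is a valley, with mean reads per CpG (average of Bull1 and Bull2, log axis) on the horizontal axis and methylation level (average of Bull1 and Bull2, percent) on the vertical axis, coloured by class. Interior valleys gather under 8% at 4 to 20 reads, and 111 of 113 deeply covered valleys lie at or above 8%.

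Interior valleys were the largest and least methylated class. They held 3478 low windows, and together they were at 4.86% (4.82 to 4.89%) in Bull1 and 4.15% (4.12 to 4.18%) in Bull2. The median interior valley was at 3.24% in Bull1 (quartiles 2.0 and 5.09%) and 2.25% in Bull2 (1.31 and 3.56%). In 118 interior valleys both libraries were under 2%. Most were short, with 279 of 544 at the minimum of 5 low windows and 37 at 10 or more.

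The lowest valley of all was chr19:11938001-11943000, with 6 of 1598 reads methylated in Bull1 (0.375%) and 6 of 1676 in Bull2 (0.358%). Its 5 windows lay between 0 and 1.95% in Bull1 and between 0 and 0.587% in Bull2. A longer one of the same kind, chr24:34577001-34586000 with 9 low windows, was at 0.533% and 0.497%. Both libraries were within 0.1 points of each other in these valleys, which were picked for a low level in both. The second lowest interior valley, chr13:16364001-16369000, was further apart, at 0.626% in Bull1 and 0.371% in Bull2.

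The longest interior valley with a mean level under 8% was chr6:106056001-106075000, with 19 low windows and 972 CpG sites. It was at 3.89% (3.47 to 4.35%) in Bull1 and 2.89% (2.51 to 3.31%) in Bull2. Methylation was uneven along it. Its first 5 windows stayed at or under 0.983% in Bull1 and 1.17% in Bull2. The sixth and eighth windows were at 11.7% and 15.8% in Bull1 and at 14.9% and 15.6% in Bull2, and the last was at 18.5% and 14.3%. These 3 windows were higher than the others in both libraries. Some windows were higher in Bull1 alone, with the seventh at 4.80% against 1.06% and the tenth at 4.65% against 0.

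Other long interior valleys under 8% lay on both sides of this level. The valley chr15:78017001-78033000, with 16 low windows, was at 6.95% in Bull1 and 8.49% in Bull2. On chromosome 3, chr3:82574001-82589000 had 15 low windows at 1.21% in Bull1 and 1.11% in Bull2. The valley chr28:31313001-31329000, with 14 low windows over 16 kb, was at 1.70% in both libraries. At chr8:74323001-74336000, 13 low windows were at 1.46% and 1.52%. Of equal length, chr18:23306001-23319000 was at 3.87% in Bull1 and 1.55% in Bull2, so valleys of like size differed in how close the libraries were.

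A smaller group of 51 interior valleys had a mean level of 8% or more. They were more deeply covered than the other 493, with 21.05 and 19.95 reads per CpG in Bull1 and Bull2 against 7.85 and 7.60. Their CpG density was lower, with a median of 24.3 listed CpG sites per kb against 54.2. Together they were at 12.9% in Bull1 and 13.6% in Bull2, and the 493 others at 3.21% and 2.25%. The part of depth in this difference was not tested.

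Some of the longest valleys were of 8% or more. On chromosome 21, 4 interior valleys stood in a row at chr21:60549001-60714000 and held 121 low windows at 9.86% in Bull1 and 10.2% in Bull2. The longest of them, chr21:60597001-60648000, had 51 low windows and 23.1 CpG sites per kb, and was at 8.87% (8.44 to 9.31%) and 9.08% (8.59 to 9.59%). Another row of 6 valleys at chr15:77874001-78033000 was at 12.1% and 13.1% over 71 low windows, and it included the valley chr15:78017001-78033000 described above, which was under 8%. By contrast, 6 interior valleys at chr2:20773001-20864000 held 39 low windows at 3.56% in Bull1 and 1.97% in Bull2. Rows of valleys therefore occurred at both levels.

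The 118 chromosome start valleys were longer, with a median of 8 low windows and 42 valleys of 10 or more. They were found on 20 of the 29 autosomes and held 1324 low windows. As a class they were at 11.9% (11.77 to 11.96%) in Bull1 and 12.1% (11.96 to 12.16%) in Bull2, and 108 of them were at 8% or more. Coverage was 13.0 and 11.3 reads per CpG, below that of all used windows. The longest valley of all was of this class. This valley, chr29:366001-418000, held 51 low windows at 10.003% (9.55 to 10.47%) in Bull1 and 9.49% (9.01 to 9.98%) in Bull2.

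Another valley of 51 low windows was the interior one on chromosome 21. Along the valley of chromosome 29 the level never approached 0. Its windows ran from 5.01% to 16.7% in Bull1 and from 4.31% to 18.3% in Bull2, without the windows under 1% seen in the long valley of chromosome 6. Next in length among chromosome start valleys, chr10:132001-170000 with 37 low windows was at 11.4% and 10.9%, and chr10:48001-84000 with 36 was at 12.6% and 12.5%. On chromosome 16, chr16:161001-191000 with 30 low windows was at 13.0% and 13.6%. The 10 chromosome start valleys under 8% were unlike the class in density, at a median of 60.4 CpG sites per kb against 26.6 for the class.

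The 113 deeply covered valleys had the highest level and the most even composition. Mean coverage was 66.3 reads per CpG in Bull1 and 68.4 in Bull2, over 3 times that of all used windows. Together they were at 14.7% (14.71 to 14.78%) in Bull1 and 16.1% (16.07 to 16.15%) in Bull2, and no valley of the class was under 2% in both libraries. In 103 of them the CpG density lay between 45 and 75 per kb, and the quartiles of the class were 57.7 and 61.4 per kb. The longest with that density, chr9:45054001-45077000, had 23 low windows at 13.0% (12.8 to 13.2%) and 14.6% (14.3 to 14.8%). Because these 113 valleys held 3250792 of the 5279533 reads of Bull1 in valleys, they set the pooled level of all valleys.

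The sequences of the deeply covered valleys were not compared, and how the aligner placed reads there was not tested. CpG spacing, which the rule did not use, was compared instead. Each valley was written as its succession of distances between neighbouring CpG sites, and strings of 12 successive distances were looked up in valleys on other chromosomes. Such a string recurred for 100 of 113 deeply covered valleys, for 16 of 544 interior valleys and for 4 of 118 chromosome start valleys. In the median deeply covered valley 37.6% of strings recurred. Single valleys shared strings with up to 111 other valleys on up to 26 chromosomes. Over all classes, 120 of 775 valleys shared strings in this way. Among the 926 runs of 4 low windows, which just missed the length limit, 87 (9.40%) did. Those runs had no depth limit and were compared only with one another. With strings of 8 distances, chosen after seeing the data, the counts were 100 deeply covered, 77 interior and 23 chromosome start valleys.

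Pooled over their class, chromosome start valleys had another regularity of spacing. Valleys with many CpG sites weigh most in such a sum, and how many valleys had the regularity was not counted. Over all pairs of CpG sites within a valley, several distances recurred more often than their neighbours, and many of them were multiples of 31 bp. Pairs 62 bp apart were 2.08 times as frequent as the running mean over 101 distances, pairs 93 bp apart 1.70 times and pairs 124 bp apart 1.74 times. Distances that are not multiples were raised as well, with 1.65 at 50 bp, 1.56 at 81 bp and 1.45 at 112 bp, so these multiples do not describe every peak. The median ratio over the multiples of 31 bp from 62 to 341 bp was 1.44 in chromosome start valleys, 1.24 in deeply covered valleys and 1.01 in interior valleys. Interior valleys thus stayed close to their running mean. In deeply covered valleys the highest ratios were 1.76 at 155 bp, a multiple of 31 bp, and 1.70 at 92 bp, which is not. The unit of 31 bp was read from chromosome start valleys after seeing the data and is a description.

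**Figure D3:**
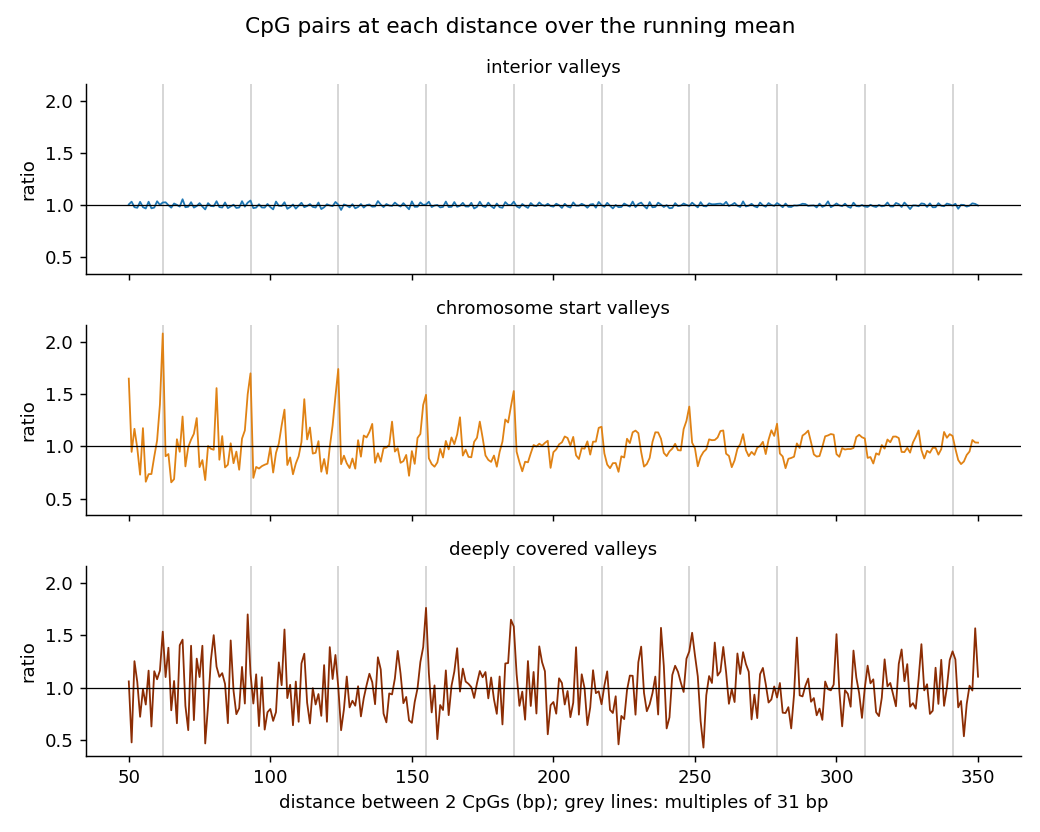
Number of CpG pairs at each distance (horizontal axis, bp) within valleys of a class, divided by the running mean over 101 distances (vertical axis, ratio). Chromosome start valleys have peaks on the grey lines, with 2.08 at 62 bp, and others between them, with 1.56 at 81 bp. Deeply covered valleys also have peaks on these lines, with 1.76 at 155 bp, and off them, with 1.70 at 92 bp. Interior valleys stay close to 1.

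CpG density of all valleys was high. The median was 52.7 per kb when only low windows were counted and 52.5 per kb over the whole span, against 8 per kb in all used windows. Runs of 1, 2, 3 and 4 low windows had medians of 38, 48, 50.3 and 51.5 per kb, so density was higher in longer runs and close to that of valleys from 3 windows on. The densest valley, chr3:8110001-8116000, held 104 CpG sites per kb at 1.29% (1.11 to 1.49%) in Bull1 and 1.09% (0.928 to 1.26%) in Bull2. The sparsest, chr4:76760001-76766000, held 3.67 per kb at 11.4% and 10.6% and was among the deeply covered ones.

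Read depth in interior valleys was low, at a median of 7.96 reads per CpG in Bull1 and 7.55 in Bull2. Of their 179491 listed CpG sites in low windows, 55.0% were covered by 5 or more reads in both libraries, against 88.7% of all autosomal sites. In chromosome start valleys 90.4% and in deeply covered valleys 84.5% of sites reached that depth. The power to detect small differences at single interior sites is therefore low at this depth, and it was not measured.

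Levels at single CpG sites with 5 or more reads were compared next. Below 20 reads a level under 5% means 0 methylated reads, so the shares that follow depend on the depth of each class. Levels under 5% were found at 77.7% of interior sites in Bull1 and 82.1% in Bull2. In chromosome start valleys these shares were 35.7% and 38.3%, and in deeply covered valleys 16.8% and 14.4%, against 5.97% and 6.11% over all autosomal sites. Sites of 50% or more in both libraries made up 0.531% of interior, 0.791% of chromosome start and 1.25% of deeply covered valley sites, against 86.2% of all autosomal sites.

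The edges of the classes also differed. Outside interior valleys the median window was at 64.9% in Bull1 and 63.8% in Bull2 in the first kb and at 87.4% and 82.8% in the second kb. It reached 88.3% and 83.5% at 10 kb. Inside, the outermost windows had a median of 4.0% and 3.44%, and the next ones 1.11% and 0.858%. In the second kb 11.9% of windows were themselves low, and the level summed over reads was 54.5% and 51.2%. The median window beside interior valleys was thus highly methylated within 2 kb, but not every window was. The first window outside a valley is at or over the limit or not used by the rule, so only the size of the step is a measurement. Summed over reads, the level at 10 kb was 53.6% and 48.9%, well below the median window, and 12.1% of the windows there were low themselves.

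Around the other classes no such step was seen. Beside chromosome start valleys the median window was at 21.7% in both libraries in the first kb and at 18.8% and 17.9% at 10 kb. Beside deeply covered valleys it was at 20.8% and 22.3% in the first kb and at 19.96% and 21.2% at 10 kb, where coverage was 64.0 and 65.8 reads per CpG. At that distance 50.2% and 40.8% of windows were low, respectively, and part of these belonged to other valleys. With other valleys left out, 23.6% of windows were low beside chromosome start valleys, at medians of 25.6% and 26.8%. Beside deeply covered valleys 29.5% were low, at medians of 22.4% and 23.6%.

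**Figure D4:**
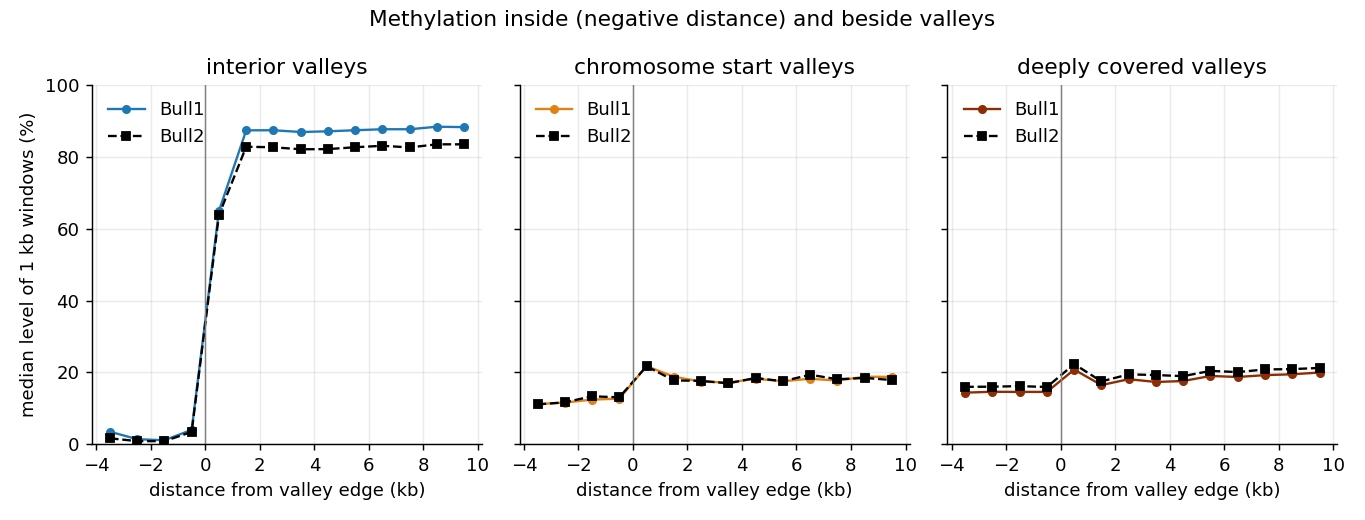
Median methylation level of 1 kb windows (vertical axis, percent) by distance from the valley edge (horizontal axis, kb), negative inside the valley, where the innermost point pools the fourth window and all beyond it, and positive outside, for Bull1 (solid) and Bull2 (dashed). Interior valleys step from 4.0% and 3.44% at the edge to 87.4% and 82.8% in the second kb, and the other classes reach 22.3% at most.

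Spacing between valleys differed among the classes. Chromosome start valleys were set by their position, so short distances between them are partly built into the class and are no separate observation. In every class a single used window at or over 20% ends a run, so close neighbours can be parts of 1 longer stretch. A gap of 1 kb to the next valley was found for 20 interior, 30 chromosome start and 27 deeply covered valleys. A further valley lay within 50 kb for 118 of 544 interior valleys, for 89 of 118 chromosome start valleys and for 72 of 113 deeply covered valleys. The median distance to the nearest valley was 1062 kb, 7 kb and 15 kb, respectively. With neighbours within 50 kb joined, the 775 valleys formed 590 groups, and the largest held 12 valleys at chr24:7001-212000. Chromosome 19 had the most valleys with 45, of which 32 were interior, and chromosome 27 the fewest with 8. Per 1000 used windows, interior low windows ranged from 0.778 on chromosome 24 to 3.83 on chromosome 21, where the long row of valleys lay.

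The libraries were next compared within valleys. Over all used windows, Bull1 was higher by 4.24 percentage points and was the higher library in 79.5% of windows. In interior valleys Bull1 was higher by 0.706 points and in 410 of 544 valleys, with a median difference of 0.595 points. With CpG sites of 10 or more reads required, the interior difference was 0.255 points. In chromosome start valleys the difference was -0.194 points, and Bull1 was higher in 52 of 118. In deeply covered valleys it was -1.37 points, and Bull1 was lower in 102 of 113. Both signs occurred within each class. Interior valleys of 8% or more were at -0.716 points, with Bull1 higher in 22 of 51, and those under 8% at 0.956. The 10 chromosome start valleys under 8% were at 0.487 points when reads were summed, with a median of -0.0103 and Bull1 higher in 5, and the 10 deeply covered valleys outside the density range above at 0.0641. For all valleys together it was -0.807 points when reads were summed, although Bull1 was higher in 473 of 775 valleys and the median difference was 0.272 points.

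**Figure D5:**
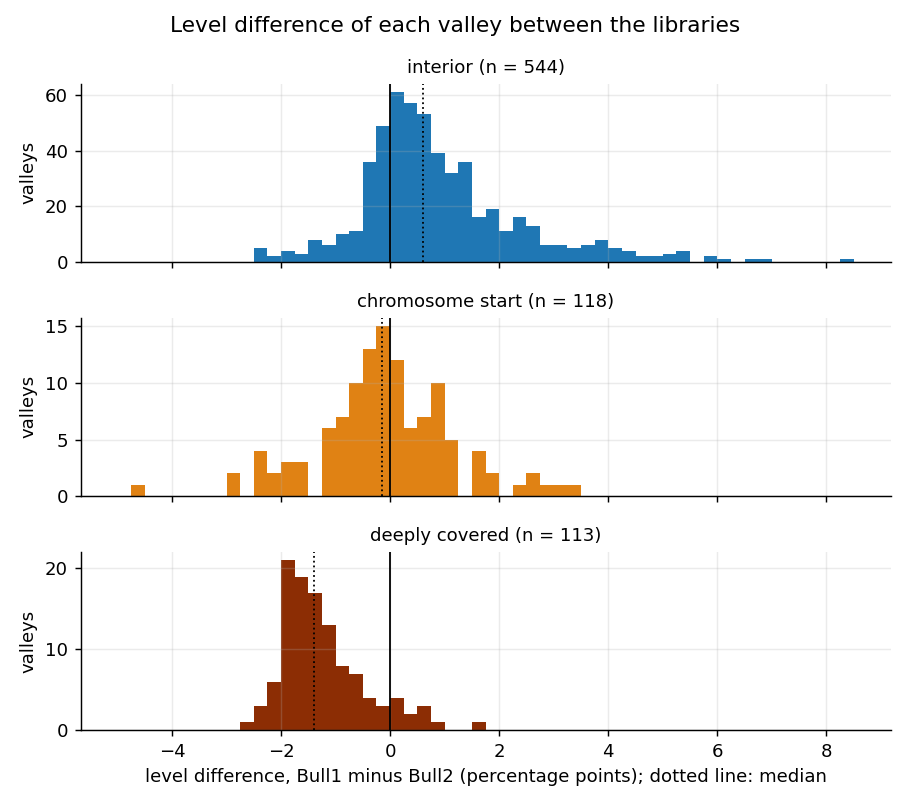
Number of valleys (vertical axis) by level difference, Bull1 minus Bull2 in percentage points (horizontal axis), in 3 panels for the classes, with a solid line at 0 and a dotted line at the median. Interior valleys have a median of 0.595 and reach 8.29, and deeply covered valleys have a median of -1.40.

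Among the 300 valleys with 10 or more reads per CpG in both libraries, the difference was largest at chr10:76990001-76995000. Bull1 was at 10.8% (311 of 2869 reads, 9.73 to 12.04%) and Bull2 at 5.49% (162 of 2951, 4.70 to 6.37%). In Bull1 its windows were at 11.9%, 0.442%, 8.05%, 19.7% and 18.03%. In Bull2 they were at 16.7%, 0.990%, 2.98%, 5.10% and 9.75%. The difference lay in the last 3 windows, and in the first 2 windows Bull2 was the higher library. A like valley was chr12:59143001-59148000, at 8.56% (7.30 to 9.96%) and 3.39% (2.58 to 4.36%).

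In the other direction, the difference was largest at chr15:1916001-1921000, a chromosome start valley with 21 CpG sites. It was at 9.36% (41 of 438 reads, 6.80 to 12.5%) in Bull1 and 14.1% (62 of 441, 11.0 to 17.7%) in Bull2. The intervals of the libraries overlapped there. At any depth, the largest difference was at chr17:69474001-69481000, which had 4.64 and 4.46 reads per CpG. Bull1 was at 9.04% (188 of 2080 reads, 7.84 to 10.4%) and Bull2 at 0.751% (15 of 1998, 0.421 to 1.24%).

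Each used window was also tested between the libraries by Fisher's exact test (two-sided, reads summed per window), with Benjamini-Hochberg adjustment over all used windows. Over all windows, 8.54% passed a false discovery rate of 0.05, with 8.26% higher and 0.278% lower in Bull1. Of the 5675 valley windows 538 (9.48%) were called, with 323 (5.69%) higher and 215 (3.79%) lower in Bull1. Nothing is read from these shares because the rule used these levels. Calls were made in 361 of 3478 interior windows (10.4%), with 316 higher and 45 lower in Bull1. In chromosome start valleys 14 of 1324 windows (1.06%) were called, with 5 higher and 9 lower. In deeply covered valleys 163 of 873 (18.7%) were called, with 2 higher and 161 lower.

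In most interior windows called higher in Bull1, no single CpG site had many methylated reads. At chr21:61183001-61184000, 88 of 474 reads were methylated in Bull1 (18.6%) and 0 of 342 in Bull2. The 88 were spread over 66 of the 109 CpG sites, and no site had more than 3. At chr13:41911001-41912000, 117 of 613 (19.1%) against 2 of 403 (0.496%) were methylated, with 4 at most at a site. Of the 316 interior windows called higher in Bull1, 255 had no site with more than 3 methylated reads in that library, and the highest count at a site was 74. Their median coverage in Bull1 was only 6.44 reads per CpG. The part of depth and of the 20% limit in these low counts was not tested. Of the 45 called lower, 21 had no site with more than 3 in Bull2, and the highest count at a site was 102. Fragments were at most 300 bp long by the protocol, and 1 fragment covers many of these dense sites, so the counts summed in a window are not independent and its p-values are too small.

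When only sites at least 300 bp apart were summed, at most 4 per window, no valley window was called. This alternative was chosen after seeing the data and rests on far fewer reads. Over all windows it called 0.00526%, with 0.00468% higher and 0.000579% lower in Bull1, and in valleys it called 0 of 5675, where the share of all windows would give fewer than 1. At an unadjusted p of at most 0.05, 143 valley windows (2.52%) passed, against 7.87% of all windows. Bull1 was higher in 59 (1.04%) and lower in 84 (1.48%), against 7.36% and 0.506% of all windows.

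Single CpG sites were tested as well. By the same test, 0.000351% of the 23108714 autosomal sites with 5 or more reads in both libraries were called, 0.000329% higher and 2.16e-05% lower in Bull1. The study reported far more differing cytosines between these bulls, with a test, coverage minimum and false discovery rate of the same name and value. The reason for this gap was not tested. Of 171512 sites in valleys, 0 were called, and at the share of all sites fewer than 1 would be. At an unadjusted p of at most 0.05, 2.91% of all sites passed, 2.57% higher and 0.342% lower in Bull1. In valleys 2315 sites (1.35%) passed, with 698 higher and 1617 lower. Deeply covered valleys gave 1700 of their 41407 sites (4.11%), with 447 higher and 1253 lower in Bull1. Interior valleys gave 309 of 98751 (0.313%), with 140 higher and 169 lower. Power to pass differs with depth, and nothing is read from these shares either.

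To read the level in a library that had not chosen it, valleys were also set by 1 library and read in the other. Set by Bull1, there were 908 valleys with 7163 low windows, of which 93.3% were under 20% in Bull2 as well. Set by Bull2, there were 912 with 6797 low windows, of which 94.9% were under 20% in Bull1. In interior valleys these shares were 97.0% and 95.3%. The level in the library that was not used was 14.3% in Bull2 and 11.9% in Bull1, against 13.1% and 12.6% in the library that set the valleys. For interior valleys it was 4.40% in Bull2 against 5.03% in Bull1, and 5.51% in Bull1 against 4.46% in Bull2. Bull1 was thus the higher library in interior valleys whichever library chose them.

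For deeply covered valleys the order was likewise the same in both readings. Set by Bull1, they were at 15.4% in Bull1 and 16.9% in Bull2, and Bull2 was higher in 146 of 161. Set by Bull2, they were at 16.0% in Bull2 and 14.7% in Bull1, and Bull1 was higher in 13 of 126. Chromosome start valleys were at 12.8% in Bull1 and 13.5% in Bull2 when set by Bull1, and at 12.5% in Bull2 and 12.7% in Bull1 when set by Bull2. Their order therefore turned with the library that chose them.

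Members close to the limits of the rule were common. In the valley with the highest window, the highest levels were 17.9% in Bull1 and 19.99% in Bull2, and 216 low windows of valleys lay between 19% and 20% in at least 1 library. At the length limit, 336 valleys had exactly 5 low windows and 926 runs had 4. Those 926 runs had median levels of 4.01% and 3.12%. The deepest valley, chr3:82746001-82751000, had 99.4 and 96.0 reads per CpG. Just over the depth limit, a run on chromosome 27 had 100.1 and 87.5. Of the 57 runs left out for depth, 25 were under 125 reads per CpG in both libraries. All 57 together were at 13.6% in Bull1 and 14.5% in Bull2.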

How the data were processed

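The data were 1 WGBS library of sperm from each of 2 monozygotic twin bulls, grouped by the labels. The authors filtered reads by quality, mapped them to UMD3.1 with Bismark and bowtie2, dropped duplicates and deposited counts of methylated and unmethylated reads per CpG site, with their sum and the methylation level as a fraction. The submitters' processing notes name FastQC 0.11.2 and Trim Galore 0.4.0. The deposited counts were not normalized, and bisulfite conversion rates were not used here. Both files listed 27203217 CpG sites, with 544424736 reads in Bull1 and 499287038 in Bull2. The files do not state whether positions count from 0 or 1, and they were treated as counting from 1.

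Levels were methylated over all reads of all listed CpG sites of a 1 kb window. Analyses were run with Python 3.11.15, numpy 2.4.6, pandas 2.3.3, scipy 1.17.1 and numba 0.67.0, and the window rule and Fisher exact test were tested on simulated data. Members, classes and lists were chosen with earlier results of these data known. Valleys to be named were the 10 longest, the 5 densest and 5 sparsest, and the 5 of largest difference per direction with 10 or more reads per CpG in both libraries, with those nearest to the limits. Others named here (the lowest, the longest of a class or level, the largest difference at any depth, rows of valleys and called windows) were chosen after their values were seen. Alternatives were other limits, windows, weights and depths.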

Additional observations from a re-analysis of the deposited data

Results flagged for a closer look

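The rule leaves out X, and 51 runs on X met its other conditions. With no control sample to set a level, they are given as values from data that no comparison above used. They held 303 low windows at 11.8% in Bull1 and 13.2% in Bull2, with a median CpG density of 11.0 per kb.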

How the results depend on the processing

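No paired analysis was possible because there was 1 library a bull. Results without replicates were compared with counting intervals, which are narrow, so small moves count as changes. Limits of 10, 15 and 30% for a low window gave 311, 491 and 1427 valleys at 1.84, 3.92 and 16.2% over both libraries, where the rule gave 775 at 11.95%, with differences (Bull1 minus Bull2) of 0.464, 0.669 and -1.14 points. Requiring 3 CpG sites of 10 or more reads per used window gave 438 valleys, 13.6% and -1.16. At least 3 or 10 low windows gave 4676 or 104 valleys. Level and difference were 12.1% and -0.876 with windows shifted by 500 bp, 12.2% and -0.853 with no window bridged, 12.8% and -0.847 with no coverage maximum, and 8.67% and -0.0297 with unweighted site levels. Windows of 5 or more CpG sites gave 12%, members read at CpG sites of 10 or more reads 13.7%, and Bull1 thinned to the reads of Bull2 a difference of -0.859.

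The negative pooled difference turned positive under the 10 and 15% limits above and in 3 alternatives chosen after seeing the data. These were the unweighted mean with members unchanged (0.0662), the median of valley differences (0.272) and leaving out deeply covered valleys (0.648). It rests on deeply covered valleys. The 10% limit gave no deeply covered valley. Over the alternatives that gave members of the class, the difference kept its sign in interior and in deeply covered valleys. In interior valleys it ran from 0.255 points, with windows used on CpG sites of 10 or more reads, to 1.05 with a limit of 30%. In deeply covered ones it ran from -1.45 to -1.02. The difference of chromosome start valleys turned to 0.161 and 0.170 under the 10 and 15% limits.

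Window calls in valleys fell from 538 to 349 at a false discovery rate of 0.01, to 237 with a difference above 5 points and to 0 with CpG sites 300 bp apart. Site calls by the Fisher exact test went from 0 to 2315 without adjustment and remained 0 at 10 or more reads and with a coverage maximum. Valleys set under 10% in Bull1 were at 2.02% in Bull2, and those set in Bull2 at 2.94% in Bull1. At 10 kb from interior valleys, leaving out other valleys gave 57.2% and 52.2%. The cause of these changes was not tested where the alternative does not itself choose other members, sites or thresholds.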
